A study of Mus musculus with 6 samples.

Results

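The Hox genes were described in sorted lung mesenchymal cells of adult mice that overproduce interferon gamma and of wild-type mice. They were chosen by name, as every row of the authors' deposited table whose symbol was Hoxa, Hoxb, Hoxc or Hoxd followed by digits. The rule found 28 genes among the 29322 genes listed, and no symbol had more than 1 row. The GENCODE M21 annotation of the mouse holds 39 Hox genes, so 11 were not analysed here, namely Hoxa11, Hoxb13, Hoxc8, Hoxc10, Hoxc11, Hoxc12, Hoxc13, Hoxd1, Hoxd11, Hoxd12 and Hoxd13. The 28 genes comprise 10 of the HoxA cluster on chromosome 6, 9 of the HoxB cluster on chromosome 11, 4 of the HoxC cluster on chromosome 15 and 5 of the HoxD cluster on chromosome 2.

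Hox genes encode homeodomain transcription factors that give cells their position along the head-to-tail axis. They lie in clusters, and within a cluster the gene order follows the order of the body regions in which the genes act, from anterior (paralogue groups 1 to 3) through central (4 to 8) to posterior (9 to 13). Genes of different clusters that descend from the same ancestral gene form a paralogue group. Fibroblasts of adult organs keep a Hox pattern that reflects where in the body they come from, held in place by Polycomb repression and Trithorax activation. In the mouse lung, genes of paralogue group 5 act in the mesenchyme, and loss of Hoxa5 disturbs lung formation.

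RNA of sorted cells was sequenced in bulk from 3 Yeti+/- libraries and 3 wild-type libraries. Yeti is a reporter allele of the interferon gamma gene that also raises its output, and the submitters describe the heterozygous mice as an interferon gamma gain of function. Cells were sorted from lung as negative for CD45 (leukocytes), CD31 (endothelium) and Epcam (epithelium), with dead cells removed by DAPI. The labels state tamoxifen injection for the mice of both groups without naming an allele that it acts on, and they call the extracted cells cultured, which was not settled here. Nothing in the labels says whether the 3 libraries of a genotype came from separate animals, so p-values measure the spread between these libraries, which may be technical.

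All values rest on 1 table of the authors' own DESeq2 comparison, whose level for a gene is the mean over the 6 libraries of the count divided by the library's size factor (normalized count). The total count of each library is unknown. Size factors solved from the lowest means lay between 0.946 and 1.088. By the authors' deposited table, 574 of the 20212 genes that received an adjusted p lay under 0.05 (2.84%), of which 373 were higher in Yeti (1.85%) and 201 lower (0.994%). The defining genes of mesenchyme were present, with Col3a1, a fibrillar collagen, at 151407 normalized counts in the authors' deposited table, and 0 of 8 mesenchyme markers passed the test.

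The HoxA and HoxB genes supplied nearly all Hox RNA of these cells, and within them the central genes dominated. Summed over the 28 genes, the Hox level in the authors' deposited table was 7496 normalized counts, or 0.0281% of the total. HoxA supplied 56.5% of that sum and HoxB 42.4%, against 0.721% for HoxC and 0.349% for HoxD. Levels between genes were compared per kilobase of annotated exon. Computed from the authors' deposited table on that scale, the 14 central genes held 86.7% of the Hox level, the 7 anterior genes 13.1% and the 7 posterior genes 0.203%. Without the division by length, the shares from the authors' deposited table were 77.7%, 22.1% and 0.246%. Per kilobase, paralogue group 5 alone held 41.8% and group 4 held 26.4%, followed by group 6 with 10.6%, group 7 with 7.19%, group 3 with 7.14% and group 2 with 5.06%. Groups 1, 8, 9, 10 and 13 each held under 1%.

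Hoxa5 (ENSMUSG00000038253), the member with the longest record in lung development, was the most abundant gene of the family. It lies on the minus strand of chromosome 6 from 52201754 to 52204587 (GRCm38), and its mean in the authors' deposited table was 2113 normalized counts, or 1126 per kilobase. Hoxb4 (ENSMUSG00000038692, chromosome 11, 96318267 to 96321638, plus strand), known from blood stem cells, followed with 633 per kilobase by the authors' deposited table. Hoxb5, which acts in airway branching, came next at 213 per kilobase and Hoxa4 at 199.6, from the authors' deposited table. With Hoxb6 at 176.8 per kilobase, these 5 genes held 73.1% of the Hox level per kilobase in the authors' deposited table. Hoxa6, Hoxa7 and Hoxa3 lay close together at 161.5, 153.2 and 153.1 per kilobase in the authors' deposited table, and Hoxa2, a gene of hindbrain and branchial arch patterning, reached 129. Hoxb7 had 77.8 per kilobase, Hoxb3 76.2 and Hoxb2 33.2 in the authors' deposited table. Neighbours in this order had between-library coefficients of variation of 0.148 to 0.283 for the 14 HoxA and HoxB genes of at least 10 normalized counts, derived from the deposited standard errors. The levels of Hoxa6, Hoxa7 and Hoxa3, and of Hoxb7 and Hoxb3, differed by less than that spread. It describes single libraries and is not the error of a difference between genes, which was not tested.

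**Figure D1:**
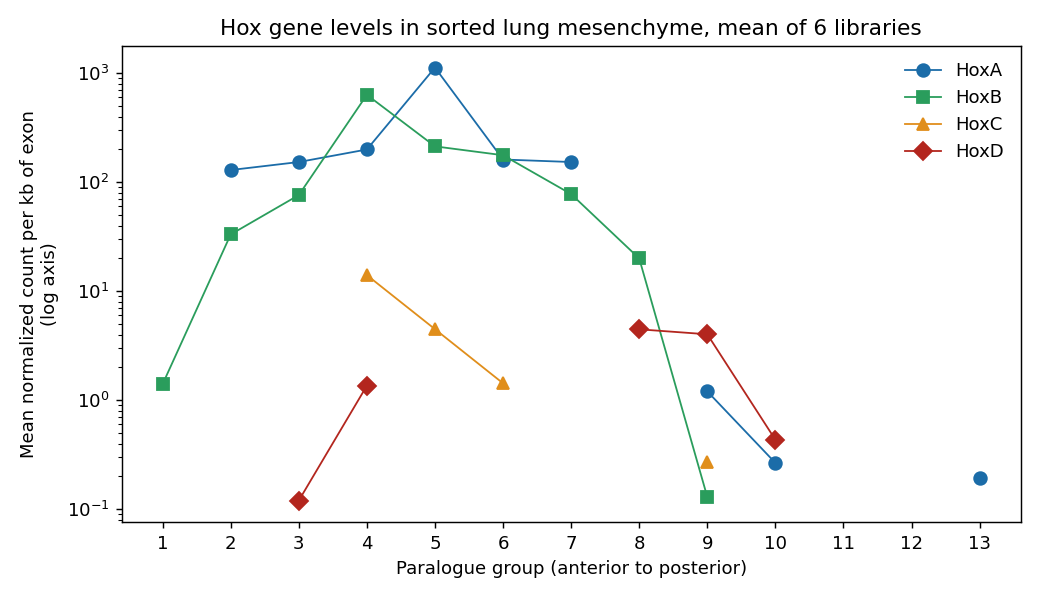
Mean normalized count per kilobase of exon over the 6 libraries (y axis, log scale) of 27 of the 28 Hox genes by paralogue group from anterior to posterior (x axis), one symbol and line per cluster; lines join members of adjacent paralogue groups. HoxA peaks at Hoxa5 with 1126 per kilobase and HoxB at Hoxb4 with 633, while every HoxC and HoxD point lies at or below 14.0.

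Levels ended sharply on the posterior side of HoxA and HoxB. Within HoxA, Hoxa7 had 440.5 normalized counts in the authors' deposited table and Hoxa9 had 6.73. Within HoxB, Hoxb7 had 120.1, Hoxb8 52.6 and Hoxb9 0.334 by the authors' deposited table. The anterior end fell off as well, since Hoxb1, a gene of hindbrain patterning, had 3.26 normalized counts in the authors' deposited table where Hoxb2 had 115.8. Across the genes of a cluster, the rank correlation (Spearman) of paralogue group with level per kilobase was -0.43 over 10 HoxA genes, -0.12 over 9 HoxB genes, -1 over 4 HoxC genes and 0.3 over 5 HoxD genes. These are descriptions across genes that share the same libraries. In HoxC the level dropped step by step from Hoxc4 (14.0 per kilobase) through Hoxc5 (4.49) to Hoxc6 and Hoxc9 in the authors' deposited table.

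The lowest genes rested on very few reads. The mean of a gene over 6 libraries with known size factors fixes the whole reads in each library where the gene is low, and together with the deposited fold change it did so for the 16 Hox genes below 70 normalized counts. Hoxb9 had 2 reads in all, 1 in each of a pair of Yeti libraries. Hoxa13, a gene of the posterior body end, had 3 reads in all, as had Hoxd3, and Hoxc9 had 4. Hoxa10 and Hoxd10, genes of the lumbar region and the hindlimb, had 5 reads each. The smallest mean listed, 0.306 in the authors' deposited table, corresponds to 2 reads. The 7 posterior genes together had 112 reads over all libraries, most of them from Hoxa9 and Hoxd9. At these depths a difference between genotypes was not detectable for Hoxa10, Hoxa13, Hoxb9, Hoxc9, Hoxd3 and Hoxd10, and no fold change is given for them.

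Between genotypes, 1 of the 19 Hox genes with an adjusted p fell in Yeti, Hoxd8, and 0 rose, by the authors' deposited table (DESeq2 Wald test with Benjamini-Hochberg adjustment over 20212 genes). The background shares are 0.994% lower and 1.85% higher. At an unadjusted p under 0.05, 2 members lay higher (Hoxa5 and Hoxa3) and 2 lower (Hoxd8 and Hoxd9) in the authors' deposited table, where 3.75% of the 29308 genes with a p lay higher and 2.94% lower. The median log2 fold change of the 19 genes was 0.25 and that of all tested genes was -0.00, both from the authors' deposited table. The cluster medians differed in sign, but the genes of a cluster are neighbours read from the same libraries. Without the wild-type library of largest size factor, the log2 fold changes of Hoxc4 and Hoxc5 were -0.11 and -0.13. The medians in the authors' deposited table were 0.41 for 8 HoxA genes and 0.31 for 7 HoxB genes, against -0.74 for 2 HoxC genes and -2.46 for 2 HoxD genes. The cell number behind each library is not known, and in bulk RNA fewer cells of a type and less RNA per cell cannot be told apart.

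**Figure D2:**
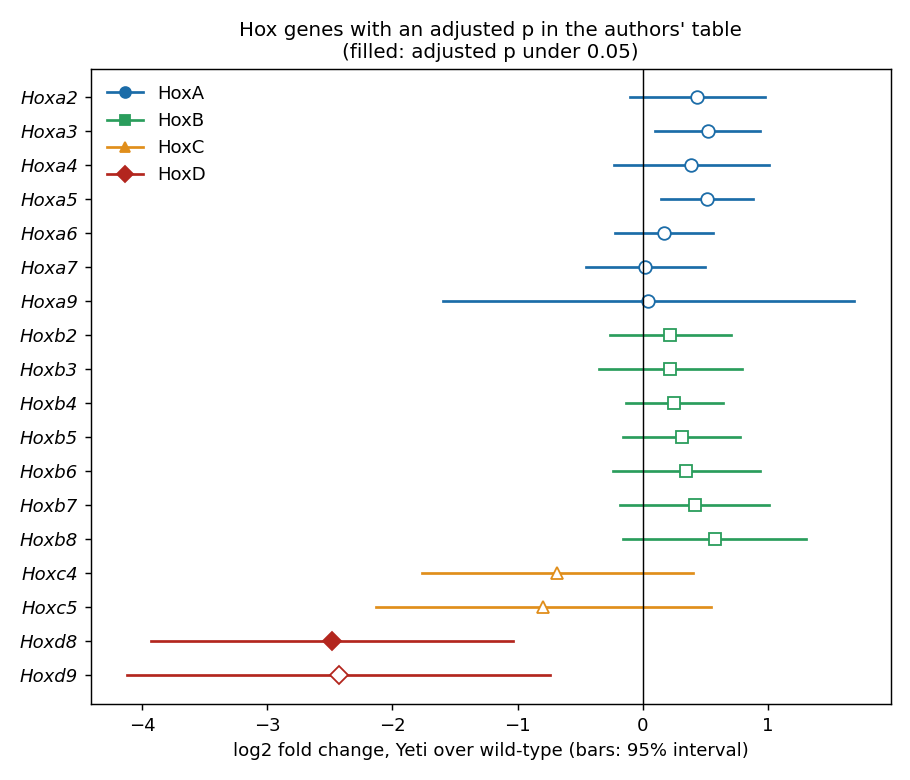
Log2 fold change of Yeti over wild-type (x axis) with its 95% interval (bars) for 18 of the 19 Hox genes tested in the authors' deposited table, coloured by cluster; a filled symbol marks an adjusted p under 0.05. All 14 HoxA and HoxB points shown lie above 0 and none is filled, while Hoxd8 at -2.48 is the filled symbol.

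The 14 HoxA and HoxB genes of at least 10 normalized counts were all above 0 in the authors' deposited table, with log2 fold changes from 0.02 to 0.58 and a median of 0.37. None of the 14 passed the test, and the background share of fold changes above 0 among tested genes was 49.8%. The 95% intervals of 12 of them held 0, and those of 10 lay within 2-fold in either direction, or of 5 with a t interval of 4 degrees of freedom. These genes neighbour each other in their clusters and were read from the same libraries, so their shared sign is not 14 separate observations. Summed over the 28 Hox genes, the fitted level was 6577 normalized counts for wild-type and 8416 for Yeti, a log2 ratio of 0.36 where all tested genes gave 0.075, both computed from the authors' deposited table.

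Hoxa5 had the smallest unadjusted p of the HoxA and HoxB genes. Its fitted level was 1737 normalized counts for wild-type and 2488 for Yeti, which is 1.43-fold, or a log2 fold change of 0.52 ± 0.19 (SE) by the authors' deposited table. The p of 0.00578 became an adjusted p of 0.142 (DESeq2), so the difference missed the threshold, and the 95% interval ran from 0.15 to 0.89. Hoxa3, a gene of thymus and parathyroid formation, went from 757 to 1085 normalized counts, 0.52 ± 0.21 and an adjusted p of 0.265 from the authors' deposited table. Of the exon bases of Hoxa3, 25.4% lie opposite other annotated genes, and the sources used here do not say whether counting used the strand. The same limit holds for Hoxb3 (52.9% of its exon bases), Hoxb2 (27.3%), Hoxa7 (20.4%) and Hoxa4 (16.0%), while no other annotated exon overlaps Hoxa5 or Hoxb4.

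Other anterior and central genes of HoxA had smaller or less certain differences. Hoxa2 stood at 194.9 normalized counts for wild-type and 264.2 for Yeti (log2 fold change 0.44 ± 0.28, adjusted p 0.762, DESeq2) in the authors' deposited table. Hoxa4 stood at 275 and 361 (0.39 ± 0.32, adjusted p 0.946) by the authors' deposited table. Hoxa6 (0.17 ± 0.20) and Hoxa7 (0.02 ± 0.24) both had an adjusted p of 0.999 per the authors' deposited table. The 95% interval of Hoxa7 ran from -0.45 to 0.50.

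The 7 HoxB genes with an adjusted p had log2 fold changes from 0.22 to 0.58. Hoxb4 had 1482 normalized counts for wild-type and 1767 for Yeti, 0.25 ± 0.20 with a 95% interval of -0.14 to 0.64 in the authors' deposited table. Hoxb5 had 530 and 658 (0.31 ± 0.24, adjusted p 0.906, DESeq2), Hoxb6 305 and 389 (0.35 ± 0.30, adjusted p 0.966) in the authors' deposited table. Hoxb2 and Hoxb3 both had 0.22, with SEs of 0.25 and 0.29, and Hoxb7 had 0.42 ± 0.30 in the authors' deposited table. Hoxb8, which acts in spinal and blood cells, had the highest fold change of the HoxA and HoxB genes of at least 10 normalized counts at 0.58 ± 0.37 (adjusted p 0.783, DESeq2) in the authors' deposited table. Its reads were 37, 47 and 46 in wild-type and 90, 45 and 51 in Yeti, with libraries listed and numbered by descending size factor within a genotype here and below, so the groups overlapped and Yeti library 1 stood well above the other 5 libraries. Without Yeti library 1 its log2 fold change was 0.23. Hoxa9, a posterior gene of blood progenitors, had 6, 3 and 11 reads in wild-type and 3, 10 and 7 in Yeti, and Hoxb1 had 6, 3 and 2 against 5, 2 and 2. Neither showed a separation of the genotypes.

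HoxC genes were low and varied most among wild-type libraries. Hoxc4 had 80, 22 and 37 reads in wild-type and 27, 38 and 17 in Yeti, and Hoxc5 had 33, 7 and 15 against 13, 10 and 7. In both genes the groups overlapped and wild-type library 1 stood highest. Their log2 fold changes in the authors' deposited table were -0.68 ± 0.55 (adjusted p 0.946, DESeq2) and -0.79 ± 0.68 (adjusted p 0.967). Without wild-type library 1 they became -0.11 and -0.13. Hoxc6 had 7, 2 and 3 reads in wild-type and 3 in each Yeti library. Summed over the 4 HoxC genes, the reads were 121, 32 and 55 in wild-type and 43, 52 and 28 in Yeti, so that wild-type library 1 alone had more than any other.

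HoxD was the cluster with the largest median difference, and it rested on few reads. Hoxd8 (ENSMUSG00000027102) lies on the plus strand of chromosome 2 from 74704615 to 74707933 (GRCm38), and no exon of another annotated gene overlaps its 2744 exon bases. In human lymphatic endothelial cells HOXD8 is known to raise PROX1, the regulator of lymphatic identity. Its reads were 18, 23 and 23 in the wild-type libraries and 8, 1 and 2 in the Yeti libraries. Every Yeti library lay below every wild-type library. The normalized reads were 20.9 ± 3.90 in wild-type and 3.70 ± 3.75 in Yeti (SD, n = 3 each), with an exact two-sided permutation p of 0.1, the smallest that 3 against 3 allows. In the authors' deposited table the fall was 5.60-fold, a log2 fold change of -2.48 ± 0.74 with a 95% interval of -3.93 to -1.04 and an adjusted p of 0.0312 (DESeq2). With the dispersion held, leaving out wild-type library 2 or 3 or Yeti library 2 or 3 raised the unadjusted p above the largest one called, 0.00142, while the log2 fold change stayed between -3.75 and -2.03 over all 6 omissions. Without Yeti library 1, which holds 8 of the 11 Yeti reads, the log2 fold change was -3.75.

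Hoxd9 and Hoxd4, at the sides of Hoxd8 in the cluster, had fold changes of the same sign. Hoxd9 (ENSMUSG00000043342, chromosome 2, 74697727 to 74700208, plus strand), a gene of forelimb patterning, had 21, 9 and 15 reads in wild-type and 4, 4 and 0 in Yeti. The groups did not overlap, at 14.5 ± 5.48 against 2.67 ± 2.31 normalized reads (SD, n = 3 each). Its log2 fold change in the authors' deposited table was -2.43 ± 0.86, with a p of 0.00487 and an adjusted p of 0.125 (DESeq2), so it did not pass. Hoxd4 (ENSMUSG00000101174, chromosome 2, 74711929 to 74729160, plus strand), a gene of the neck vertebrae, had 13, 3 and 5 reads in wild-type and 2, 2 and 0 in Yeti. Again the groups did not overlap, and the log2 fold change in the authors' deposited table was -2.31 ± 1.19 (unadjusted p 0.0523, no adjusted one). Exons of Hoxd3 and of a further gene of the same strand share 52.3% of the exon bases of Hoxd4, so reads could be split between them. Hoxd10 had 4, 0 and 1 reads in wild-type and 0 in each Yeti library, and Hoxd3 had 1, 0 and 2 against 0 in each. Summed over the 5 HoxD genes, the reads were 57, 35 and 46 in wild-type and 14, 7 and 2 in Yeti, or 138 against 23. Wild-type library 1, the highest for the HoxC genes, was also the highest for Hoxd9 and Hoxd4 but the lowest wild-type library for Hoxd8.

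Of the 7 Hox genes with a mean of 3 to 15 normalized counts, 3 had all Yeti libraries below all wild-type libraries, namely Hoxd8, Hoxd9 and Hoxd4. Among all 4859 genes of that range, 7.08% did. The 3 genes neighbour each other in HoxD and were read from the same libraries, so they are not 3 separate observations. None of the 7 had all Yeti libraries above, against 5.1% of the 4859 genes. Hoxd3os1, an antisense gene of HoxD that overlaps 11.8% of the exon bases of Hoxd4 from the other strand, had 6 reads in each wild-type library and 0, 4 and 0 in Yeti. Without strand, reads of a gene and of its antisense partner cannot be told apart.

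**Figure D3:**
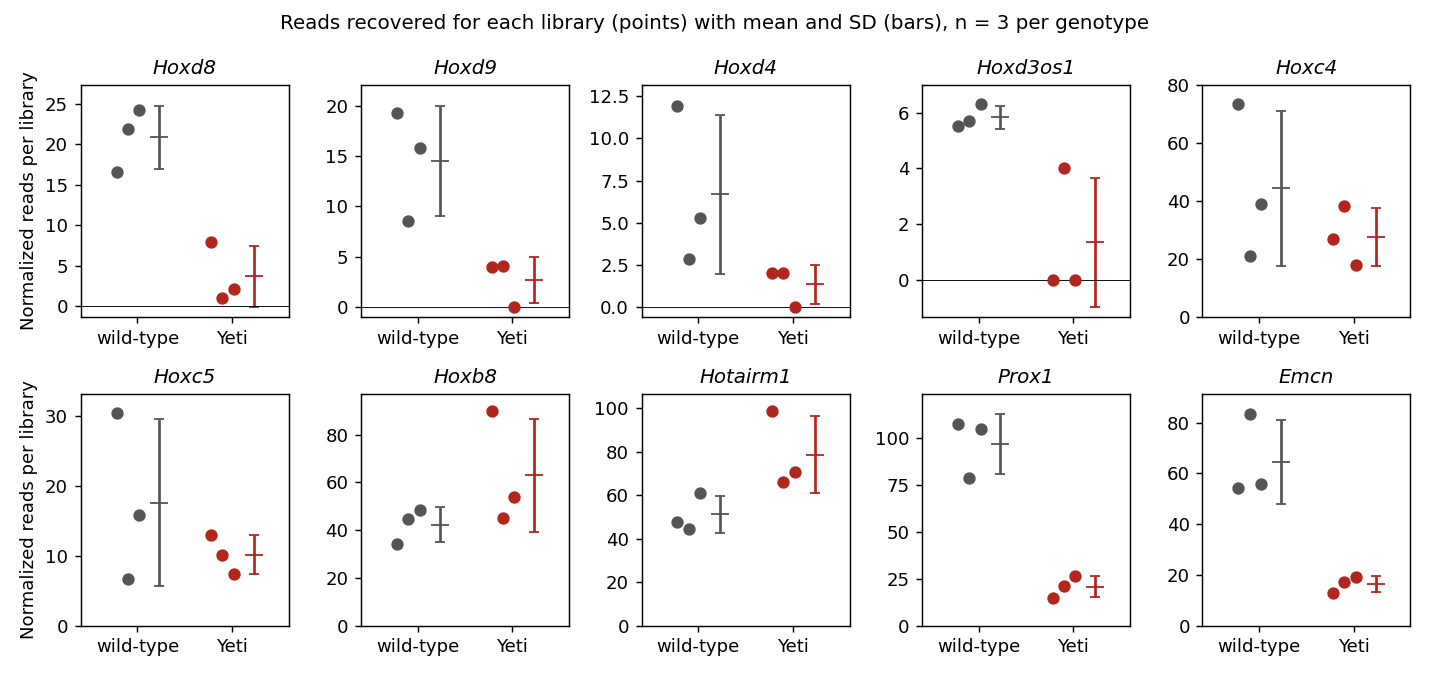
Normalized reads recovered for each library (points, y axis, linear) in wild-type (grey) and Yeti (red), with mean and SD (bars, n = 3 per genotype), for Hox genes, the non-coding cluster genes Hoxd3os1 and Hotairm1, and the endothelial genes Prox1 and Emcn. Hoxd8, Hoxd9, Hoxd4, Hoxd3os1, Prox1 and Emcn have every Yeti point below every wild-type point. Hotairm1 has every Yeti point above, and Hoxc4, Hoxc5 and Hoxb8 overlap. Among all 4859 genes of mean 3 to 15, 7.08% had every Yeti library below and 5.1% every one above. For higher means, such as those of Prox1, Emcn and Hotairm1, that share was not computed.

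Some markers of endothelial cells also fell in Yeti. By the authors' deposited table, 5 of 6 lymphatic endothelium markers fell (DESeq2, adjusted p under 0.05), and the median of the list was -2.22. Prox1 had 117, 83 and 100 reads in wild-type and 15, 21 and 25 in Yeti, and its log2 fold change in the authors' deposited table was -2.22 ± 0.33. Among the Yeti libraries the order of Prox1 was opposite to that of the HoxD sum of 14, 7 and 2 reads. Among the wild-type libraries Prox1 had the same order as the HoxD sum of 57, 35 and 46 reads. Hoxd9 and Hoxd4 had that order too, whereas Hoxd8, with 18, 23 and 23 reads, was lowest where Prox1 was highest. These orders over 3 libraries per genotype were not tested. Reln (-3.43), Mmrn1 (-2.91), Flt4 (-2.22) and Lyve1 (-1.58) are the others that fell in the authors' deposited table, whereas Pdpn, also a fibroblast gene, had 0.36 ± 0.24. Their summed fitted level went from 4744 to 2762 normalized counts, with 1741 and 2241 of it from Pdpn, and no marker was at 0, by the authors' deposited table. Of 7 endothelium markers 3 fell in the authors' deposited table, Emcn (-1.98), Egfl7 (-1.29) and Tek (-0.78), the list median was -0.78 and the summed level went from 5815 to 4108 normalized counts. Pecam1, which encodes the CD31 used in the sort, had 0.25 ± 0.46 in the authors' deposited table. Among the 4 markers of B and plasma cells, 3 fell, with a list median of -1.78 and a summed level of 111681 against 31707 normalized counts, computed from the authors' deposited table. The 4 nerve and Schwann cell markers were all below 0 with none past the test, with a median of -0.85 and summed levels of 571.5 and 280.1, and the 6 epithelium markers (median -0.10, summed levels 6846 and 4517), 4 leukocyte markers (0.13) and 4 mesothelium markers (-0.15) had no member past it in the authors' deposited table. Epcam, used in the sort, had -0.97 (unadjusted p 0.00878) and Scgb1a1, a club cell gene, -0.97 (unadjusted p 0.0107) in the authors' deposited table. The part of these other cell types in the HoxD difference was not tested.

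The promoters of the 3 HoxD genes whose libraries separated by genotype are shown, with that of Hoxa5 as the most abundant member. They let the start regions of genes with fold changes of opposite sign be compared. Of these genes only Hoxd8 passed the test. Each window runs from 250 bases before to 50 bases after the RefSeq gene start (GRCm38.p6), is written 5′ to 3′ on the gene's own strand, and has in capitals any match to the interferon gamma activated site.
Hoxd8 promoter, chr2:74704365-74704664, plus strand: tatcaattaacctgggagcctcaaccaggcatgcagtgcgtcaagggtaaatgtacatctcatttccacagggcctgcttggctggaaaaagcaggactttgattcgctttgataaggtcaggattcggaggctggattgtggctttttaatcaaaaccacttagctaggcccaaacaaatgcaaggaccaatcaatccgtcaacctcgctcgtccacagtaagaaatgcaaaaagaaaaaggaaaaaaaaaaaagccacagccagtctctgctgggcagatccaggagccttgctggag
Hoxd9 promoter, chr2:74697513-74697812, plus strand: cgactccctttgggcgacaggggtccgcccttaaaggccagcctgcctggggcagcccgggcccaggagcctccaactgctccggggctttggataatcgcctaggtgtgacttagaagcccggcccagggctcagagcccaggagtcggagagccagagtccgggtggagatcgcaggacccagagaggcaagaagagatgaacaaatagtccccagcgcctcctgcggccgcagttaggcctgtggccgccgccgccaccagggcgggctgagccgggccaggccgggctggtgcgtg
Hoxd4 promoter, chr2:74721728-74722027, plus strand: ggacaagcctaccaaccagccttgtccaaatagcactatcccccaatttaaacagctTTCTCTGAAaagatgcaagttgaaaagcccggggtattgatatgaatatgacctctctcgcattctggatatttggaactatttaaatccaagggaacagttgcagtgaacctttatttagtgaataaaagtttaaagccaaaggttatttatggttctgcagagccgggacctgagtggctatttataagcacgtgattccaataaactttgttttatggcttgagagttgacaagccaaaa
Hoxa5 promoter, chr6:52204538-52204837, minus strand: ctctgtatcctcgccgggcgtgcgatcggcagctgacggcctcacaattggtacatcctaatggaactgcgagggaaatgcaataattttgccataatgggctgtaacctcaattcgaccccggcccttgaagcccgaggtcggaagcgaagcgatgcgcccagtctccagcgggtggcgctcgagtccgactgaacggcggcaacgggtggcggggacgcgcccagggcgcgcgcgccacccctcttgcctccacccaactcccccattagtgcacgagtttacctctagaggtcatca
Interferon gamma acts on genes through the gamma activated site TTCNNNGAA, and type I interferons act through the response element searched here as GAAA, any 2 bases and GAAA again. On either strand, TTCNNNGAA was found in 1 of 18 windows of 17 Hox genes, that of Hoxd4, which is 5.556% against 8.298% of all 32851 RefSeq windows of this length. The GAAA element was found in 0 of the 18 windows, against 3.443% of all. The Hox and Pbx joint site TGATNNAT was found in 3 of the 18 windows (16.67%), those of Hoxa2, Hoxb1 and Hoxb8, against 8.846% of all. A match describes letters only, and these motifs are not sites shown to be bound. The Hoxd4 window, which holds the TTCNNNGAA match, lies inside the GENCODE gene (74711929 to 74729160), because the RefSeq start used here differs. GC content of the shown windows was 46.67% for Hoxd8, 68.33% for Hoxd9, 39.67% for Hoxd4 and 61.67% for Hoxa5, with medians of 57.67% over the Hox windows and 52.67% over all windows.

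Other genes inside the clusters, mostly non-coding, did not pass the test. Of 20 such rows 13 had an adjusted p, 10 above 0 and 3 below, with a median of 0.26 and 0 called in the authors' deposited table (DESeq2). The most abundant was Hoxaas2, an antisense RNA of HoxA, at 312.6 normalized counts and 0.21 ± 0.34 in the authors' deposited table. Hotairm1, a non-coding RNA of HoxA, had 52, 47 and 58 reads in wild-type and 99, 66 and 67 in Yeti. All Yeti libraries lay above all wild-type libraries, and its log2 fold change in the authors' deposited table was 0.62 ± 0.30 (p 0.0345, adjusted p 0.442, DESeq2). Hoxb5os, antisense to Hoxb5, also separated, with 63, 46 and 61 reads in wild-type and 81, 65 and 71 in Yeti, and had 0.42 ± 0.27 (adjusted p 0.789) in the authors' deposited table. For Hotairm1 and Hoxb5os the exact two-sided permutation p was 0.1, the smallest that 3 against 3 allows. The share of all genes of such means that separate was not computed. Hoxb3os overlapped, at 54, 52 and 67 against 84, 59 and 55 reads. The hairpin row of Mir10a, a microRNA gene of HoxB, had 27, 8 and 10 reads against 6, 9 and 1, and -1.41 ± 0.85 (adjusted p 0.727) in the authors' deposited table. Long-RNA reads over a hairpin do not measure the mature microRNA.

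Genes that work with Hox proteins or act on their chromatin had no calls. The TALE homeodomain cofactors, which bind DNA together with Hox proteins, were all tested, and 0 of 9 passed, with a median of -0.04 in the authors' deposited table. Meis1, a cofactor expressed at 2244 normalized counts, had 0.05 ± 0.20 in the authors' deposited table. Pbx4 had the largest size of the 9, -0.54 ± 0.32 (adjusted p 0.720, DESeq2) in the authors' deposited table, with 55, 40 and 47 reads in wild-type and 26, 34 and 33 in Yeti, which do not overlap. How many of all genes at such a mean do not overlap was not computed. Of 29 Polycomb subunits, which keep Hox genes silent, 0 passed, with a median of -0.02 in the authors' deposited table. Cbx6, the most abundant, had 0.14 ± 0.13, while Cbx7 had -0.40 ± 0.16 (adjusted p 0.226, DESeq2) in the authors' deposited table. Among 12 Trithorax and H3K27 demethylase genes, which keep Hox genes active, 0 passed, with a median of -0.09 in the authors' deposited table. Kdm6b, the most abundant, had 0.60 ± 0.33 (adjusted p 0.626, DESeq2) and Kmt2a -0.23 ± 0.18 in the authors' deposited table.

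Upstream regulators, neighbours of the clusters and other homeobox genes had no calls. Of 12 regulators listed in the table, mostly retinoic acid receptors and enzymes, 0 passed, with a median of -0.00 in the authors' deposited table. Rarg was the most abundant at 3726 normalized counts and had 0.05 ± 0.20, and Egr2, which drives hindbrain Hox genes, had 0.91 ± 0.38 (adjusted p 0.288, DESeq2) in the authors' deposited table. Of 9 tested protein-coding genes that flank the clusters 0 passed, with a median of -0.08 in the authors' deposited table. Lnpk and Mtx2, which flank HoxD, had -0.24 ± 0.17 and 0.11 ± 0.17 in the authors' deposited table, and Cbx5 beside HoxC, the most abundant, had -0.06 ± 0.10. Of 32 other homeobox genes with an adjusted p, 0 passed, with a median of 0.05 in the authors' deposited table. Prrx1, a mesenchymal homeobox gene and the most abundant, had -0.02 ± 0.21, and Satb1, a chromatin organiser, had -1.10 ± 0.36 (adjusted p 0.0676, DESeq2) in the authors' deposited table.

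Genes tied to Hox5 function in mouse lung mesenchyme included 1 call. Eln, which encodes elastin, rose by 0.81 ± 0.20 on the log2 scale (adjusted p 0.00266, DESeq2) from a mean of 107276 normalized counts, and it was the 1 of 10 tested genes that passed in the authors' deposited table. The median of the 10 was 0.06 in the authors' deposited table. Lef1, a Wnt effector, had -0.90 ± 0.30 (adjusted p 0.0788, DESeq2) and missed the threshold in the authors' deposited table. Wnt2 and Wnt2b, ligands named with the Hox5 genes in mouse lung, had -0.16 and -0.20, and Bmp4 had 0.40 ± 0.27 in the authors' deposited table.

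**Figure D4:**
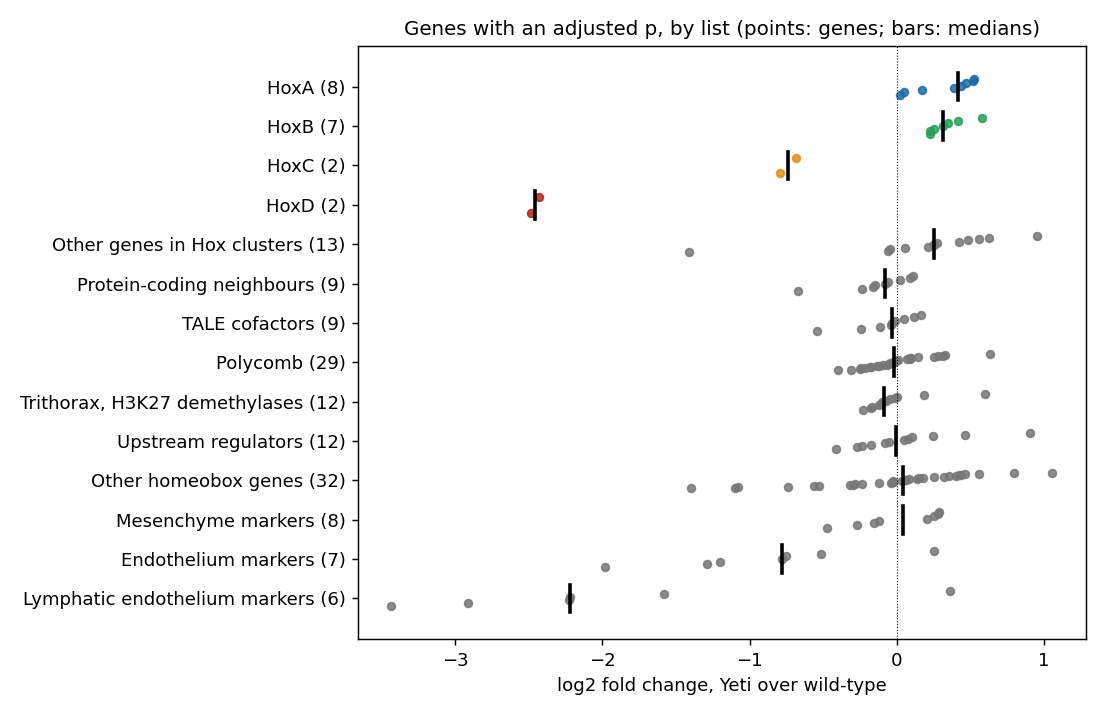
Log2 fold change of Yeti over wild-type (x axis) of every gene with an adjusted p (points, from the authors' deposited table) by list (y axis, number of genes in brackets), with list medians as black bars. The HoxA and HoxB points lie above 0, the 4 HoxC and HoxD points below 0, and the cofactor, Polycomb and Trithorax medians within 0.09 of 0, while the lymphatic endothelium median is -2.22.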

How the data were processed

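RNA of sorted lung mesenchymal cells was sequenced in 3 Yeti+/- and 3 wild-type libraries, grouped by the sample titles. Per the submitters' processing notes, the tools were FastQC, STAR and DESeq (no versions) and the builds GRCm38 and mm10. The sources used here do not give the program, annotation or strand setting of the read counting. A single deposited table was used, which compares the groups and has no columns per library. Its mean column is a signal (count over size factor, averaged over all libraries), and its log2 fold change, log2 standard error and Wald score come from DESeq2, per the file headers. Raw and adjusted p-values are those the authors deposited, and recomputing the Benjamini-Hochberg adjustment changed them by at most 3.91e-06.

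Fitted group levels, 95% intervals (1.96 SE), levels per kilobase of exon (GENCODE M21, all 28 Hox identifiers matched) and between-library variation were computed from these columns. Reads per library were recovered for genes under 70 normalized counts. The 21 lowest distinct means gave the size factors, since genes with 2 reads pair the libraries. The genotype of a library is the one the authors' fit gave it, read from the sign of the deposited fold change in genes whose 2 reads lie in that library. Libraries are numbered by size factor and are not tied to titles. All 4859 genes of mean 3 to 15 were solved, 4364 by the mean alone, and for 4343 of these the recovered reads predicted the deposited fold change within 3.17e-05. On simulated data 100% of 237 genes of mean 3 to 15 and 99.32% of 148 genes of mean 15 to 70 were recovered. For genes above 70, which include most HoxA and HoxB genes, no value per library can be given.

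The test is the authors' DESeq2 Wald test at an adjusted p of 0.05. The table holds no counts, so no count model was fitted to all genes. A negative binomial count model was fitted only to recovered reads. It chose among candidate reads where the mean left several, and gave the Wald p-values with single libraries left out. Members and lists were chosen with earlier results of these data known. Every Hox gene of at least 10 normalized counts is described singly, and of each list the most abundant member and up to 6 called members are named. Of the genes this rule names, 1 Hox gene and some list members are not reported here singly. Lower Hox genes, and list members outside that rule, were named after their values were seen. Alternatives changed the adjustment, the minimum mean, the length scaling, the centring and the interval, and left out single libraries. Python 3.11.15, pandas 2.3.3, numpy 2.4.6, scipy 1.17.1 and matplotlib 3.10.9 were used.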

Additional observations from a re-analysis of the deposited data

How the results depend on the processing

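The counts of Hox genes called, 0 higher and 1 lower, were the same under both alternative adjustments and at an adjusted p threshold of 0.1. The adjusted p of Hoxd8 was 0.0451 over all genes with a p and 0.0281 over genes of at least 10 normalized counts. The median log2 fold change of the 28 Hox genes, 0.20, ranged up to 0.33 with a minimum of 100 normalized counts. The number of intervals within 2-fold fell from 10 to 5 with a t interval of 4 degrees of freedom. No result reversed. Leaving out each library was added after the data were seen, with the dispersion held. Hoxd8 then ranged from -3.75 to -2.03 (p 4.17e-04 to 0.0114) and missed the largest called p, 0.00142, without wild-type library 2 (p 0.00228) or 3 (0.00320), or Yeti library 2 (0.0114) or 3 (0.00682). Hoxd9 ranged from -2.84 to -1.86, Hoxd4 from -2.72 to -1.58, Hoxb8 from 0.23 to 0.77, Hoxc4 from -1.02 to -0.11 and Hoxc5 from -1.19 to -0.13. The count of calls without a library was not run, since most genes have no value per library. No paired analysis was possible because the recovered libraries carry no replicate number. Depth limits the low genes, as the 6 Hox genes of mean under 1 hold 2 to 5 reads in all.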
